A study of Mus musculus with 40 samples.

Results

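The genes described here are 36 genes of the cell division machinery, 19 of DNA replication and 17 of mitosis, listed by symbol, with earlier results of these data known. Of these, 32 had a named probe on the array (18 replication and 14 mitosis genes), out of 16593 named genes in all. *Gins2*, *Ccnb1*, *Aurkb* and *Mki67* had no named probe and were not analysed here. Levels are log2 signal on Illumina mouse BeadChips, 1 array per sample, in homozygous *Aey69* mutants and wild-type controls of the same C3HeB/FeJ background, untreated. *Aey69* is a small-eye line from a chemical mutagenesis screen that carries a base change in *Hist2h3c1*, a histone H3 gene. Whole embryos were taken at E9.5 (4 mutants, 3 controls), heads at E10.5 (4 of each genotype) and E11.5 (4 of each), the region of the eye at E12.5 (4 mutants, 3 controls) and whole eyes at E13.5 (3 of each), which makes 36 arrays. The labelled tissue changed with the stage at every step other than E10.5 to E11.5, so that at the other steps stage and tissue cannot be told apart. The E13.5 controls carry E12.5 in some of their labels, but were grouped by title and age. Sample numbers below are those of the deposited signal columns.

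Replication starts when *Cdc6* and the 6 subunits of the MCM helicase, *Mcm2* to *Mcm7*, are loaded at origins during G1, and *Cdc45* turns the loaded helicase on. *Pcna* is the sliding clamp of the polymerases, *Rfc4* part of its loader, *Prim1* the catalytic primase subunit, and *Fen1* and *Lig1* trim and seal Okazaki fragments. *Tyms*, *Rrm1* and *Rrm2* make deoxynucleotides, and the E cyclins *Ccne1* and *Ccne2* drive entry into S phase. Later in the cycle cyclin A2 and the B cyclins activate *Cdk1*, the kinases *Aurka*, *Plk1*, *Bub1b* and *Ttk* act at centrosomes, kinetochores and the spindle checkpoint, and *Kif11*, *Birc5* and *Top2a* serve the spindle, the centromere and chromosome untangling. *Cdc20* activates the anaphase-promoting complex, and *Foxm1* is a transcription factor of the late cell cycle. In the embryonic eye and head these genes mark dividing progenitors, and they are shut down as cells leave the cycle to become neurons or lens fibers. E2F factors are known to control many replication genes, whereas many mitotic genes are controlled through a cell cycle genes homology region (CHR) and CCAAT boxes near the start site.

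The 250 bases upstream of the start sites (RefSeq, GRCm38.p6) were searched on both strands for the CHR letters TTTGAA, for CCAAT and for the E2F letters TTTCCCGC, TTTGGCGC, TTTCGCGC and TTTGCCGC. Of the 36 genes, 30 had at least 1 window in the reference table, and *Mcm4*, *Gins2*, *Ccne2*, *Ccna2*, *Aurkb* and *Foxm1* had none. The 6 windows below are examples, with 3 replication genes first and 3 mitosis genes after them. They are not typical of their lists, since 4 of 20 replication windows held E2F letters and 6 of 14 mitosis windows held CHR letters. *Mcm3* and *Fen1*, which are also named in the results, held no E2F letters and are not printed. Capitals mark the searched letters on either strand, and in *Mcm5* and in *Mcm6* a pair of E2F matches overlaps, so that it reads as 1 run. They lie at chr11:98907901-98908150 (plus strand) for *Cdc6*, chr8:75109259-75109508 (plus) for *Mcm5*, chr1:128359706-128359955 (minus) for *Mcm6*, chr10:69352913-69353162 (minus) for *Cdk1*, chr4:118437344-118437593 (minus) for *Cdc20* and chr19:37376132-37376381 (plus) for *Kif11*, each printed 5′ to 3′ on the strand of its gene.
Cdc6: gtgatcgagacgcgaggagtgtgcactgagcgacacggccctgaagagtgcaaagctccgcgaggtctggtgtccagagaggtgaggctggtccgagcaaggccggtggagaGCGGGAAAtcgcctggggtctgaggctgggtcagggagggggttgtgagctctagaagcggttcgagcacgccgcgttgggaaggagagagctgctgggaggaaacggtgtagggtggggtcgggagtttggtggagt
Mcm5: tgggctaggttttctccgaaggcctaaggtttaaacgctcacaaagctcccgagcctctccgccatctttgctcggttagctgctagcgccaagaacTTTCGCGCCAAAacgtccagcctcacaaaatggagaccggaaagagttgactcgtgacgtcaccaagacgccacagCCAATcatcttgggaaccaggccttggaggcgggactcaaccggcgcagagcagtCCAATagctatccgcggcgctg
Mcm6: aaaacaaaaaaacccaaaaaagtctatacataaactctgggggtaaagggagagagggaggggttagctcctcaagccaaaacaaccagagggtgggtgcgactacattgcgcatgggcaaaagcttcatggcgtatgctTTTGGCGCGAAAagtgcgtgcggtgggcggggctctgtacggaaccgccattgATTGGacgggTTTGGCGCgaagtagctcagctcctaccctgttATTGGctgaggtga
Cdk1: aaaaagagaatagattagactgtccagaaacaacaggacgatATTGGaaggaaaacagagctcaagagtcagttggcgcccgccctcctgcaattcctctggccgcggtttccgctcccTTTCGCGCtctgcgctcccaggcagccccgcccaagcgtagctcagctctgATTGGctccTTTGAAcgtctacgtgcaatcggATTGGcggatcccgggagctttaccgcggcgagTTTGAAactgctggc
Cdc20: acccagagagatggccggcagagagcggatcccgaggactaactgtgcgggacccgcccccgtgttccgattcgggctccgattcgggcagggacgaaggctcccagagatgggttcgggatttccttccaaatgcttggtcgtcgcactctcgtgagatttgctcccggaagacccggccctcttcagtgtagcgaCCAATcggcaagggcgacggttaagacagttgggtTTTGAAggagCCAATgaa
Kif11: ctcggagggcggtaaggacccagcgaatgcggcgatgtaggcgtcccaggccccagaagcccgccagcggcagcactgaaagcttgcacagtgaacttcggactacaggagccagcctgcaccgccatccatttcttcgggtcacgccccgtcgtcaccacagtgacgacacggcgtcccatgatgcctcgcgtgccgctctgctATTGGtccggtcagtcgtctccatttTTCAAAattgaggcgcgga

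*Cdc6*, *Mcm5* and *Mcm6* held E2F letters (1, 2 and 3 matches) and no CHR letters, while *Cdc20* and *Kif11* each held 1 CHR match and no E2F letters. *Cdk1* held 2 CHR matches, 3 CCAAT matches and 1 E2F match. In *Cdc20* the CHR letters lay at positions -18 to -13 from the start site, between CCAAT matches at -53 to -49 and -8 to -4. In *Kif11* the CHR letters lay at -19 to -14, with a CCAAT match at -45 to -41.

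Of the 20 windows of 16 replication genes, 4 (20%) held E2F letters, 11 (55.0%) CCAAT and 3 (15.0%) CHR letters. Of the 14 windows of 14 mitosis genes, 1 (7.14%) held E2F letters, 13 (92.9%) CCAAT and 6 (42.9%) CHR letters, and the same 6 held CHR letters and CCAAT together. Over all 32851 windows of 27025 genes the shares were 1.86% for E2F letters, 33.8% for CCAAT, 16% for CHR letters and 5.55% for CHR letters with CCAAT. These counts describe letters in a fixed window, were not tested, and a window without a match says nothing of the factor.

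Between 44.6% and 54.9% of all probes were detected per array. In 29 of the 32 genes the probe was detected in at least 1 group (detection p under 0.05 on at least 2 of 3 or 3 of 4 arrays), in all 18 replication genes and in 11 of 14 mitosis genes. The cyclin gene *Ccnb2* and the checkpoint kinase gene *Bub1* were each detected on 1 array of 36, and *Cenpe*, the kinetochore motor, on 0. A further 24 genes were detected on all 36 arrays. *Prim1* and *Ccna2* were each detected on 19 arrays, *Ttk* and *Ccne2* on 33 and *Mcm7* on 34. A signal of 0 corresponds to a log2 level of 4.46.

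**Figure D1:**
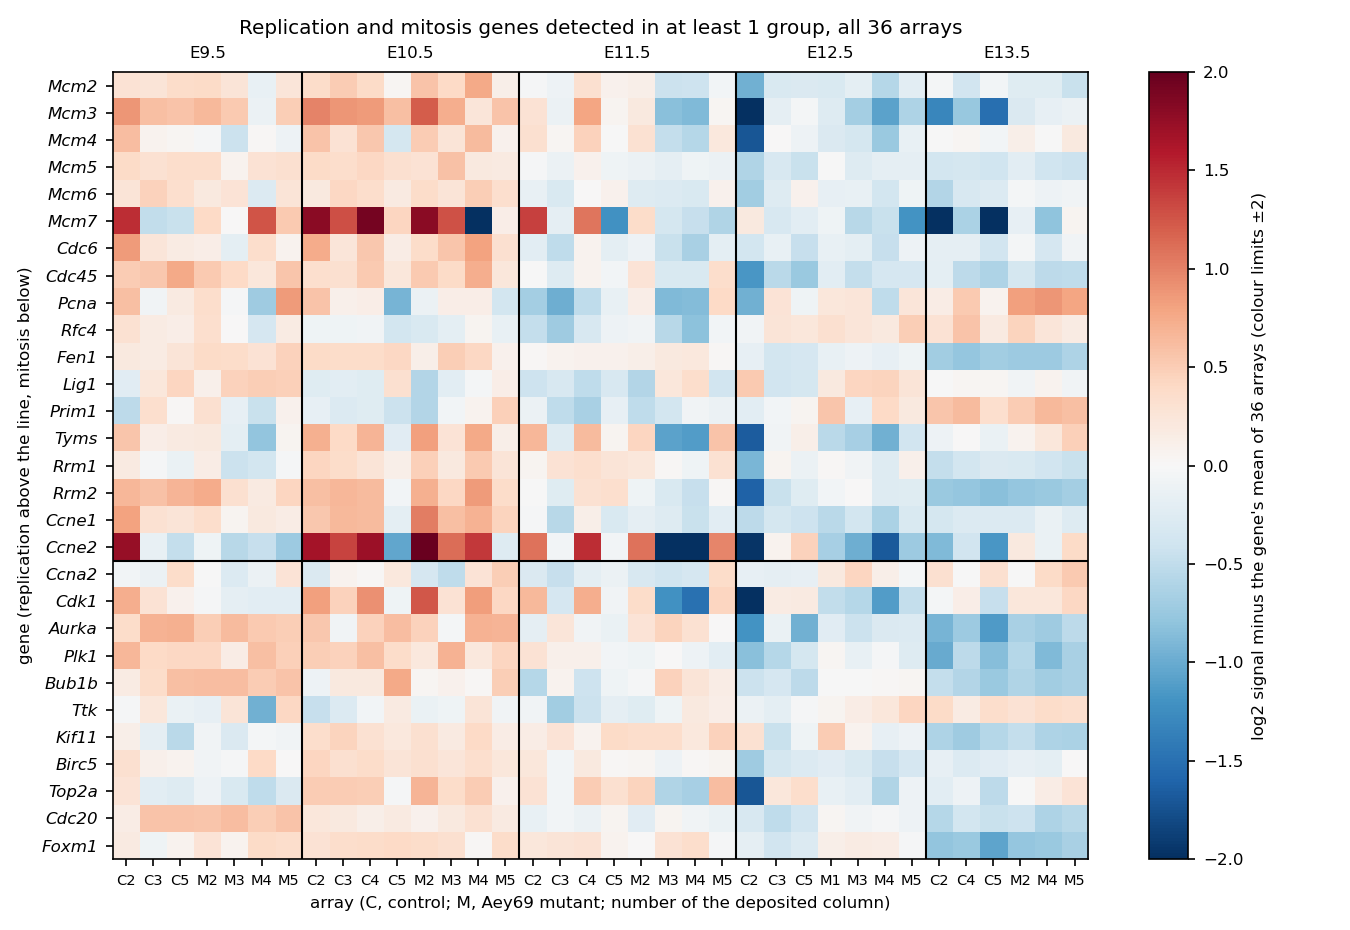
Heat map of the 29 detected genes (replication genes above the line, mitosis genes below) on all 36 arrays (by stage and genotype), coloured by the log2 difference of each array from the gene's mean over all arrays. Control 2 of E12.5 stands out as low for *Cdk1*, *Mcm3* and *Top2a*, with log2 levels of 7.51, 6.82 and 9.26.

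How much a gene varied among arrays of 1 group differed widely between the members. The within-group SD over 36 arrays in 10 groups was 1.03 for *Ccne2*, 0.95 for *Mcm7*, 0.65 for *Cdk1*, 0.52 for *Tyms*, 0.49 for *Mcm3*, 0.48 for *Pcna* and 0.45 for *Top2a*. It was 0.09 for *Fen1*, 0.10 for *Mcm5* and *Cdc20*, and 0.13 for *Foxm1* and *Birc5*. The median SD was 0.26 for the replication genes, 0.20 for the mitosis genes and 0.26 for 10674 detected named genes. The genes with the widest spread thus included clamp, helicase and nucleotide synthesis genes as well as *Cdk1* and *Top2a*, and the steadiest included members of both lists.

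In 6 of the 7 most variable genes the arrays that deviated were largely those with few or many detected probes. Over the 36 arrays, which share library, chip and RNA between all genes, the within-group deviation correlated with that of the share of detected probes at r = 0.90 for *Mcm3*, 0.87 for *Tyms*, 0.86 for *Top2a*, 0.81 for *Cdk1*, and 0.76 for each of *Ccne2*, *Pcna* and *Mcm4*. The exception was *Mcm7*, with 0.22. The correlation was -0.81 for *Lig1*, -0.19 for *Fen1*, -0.36 for *Cdc20*, -0.30 for *Foxm1* and 0.34 for *Mcm5*. It was above 0.5 in 11 of 18 replication genes (61.1%), in 2 of 11 mitosis genes (18.2%) and in 20.5% of all detected named genes. The median correlation was 0.63 in the replication genes, 0.07 in the mitosis genes and -0.14 over all genes. These values are a description, and the part of RNA quality or cell makeup in them was not tested. In whole tissue, fewer dividing cells and less RNA per dividing cell cannot be told apart.

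**Figure D2:**
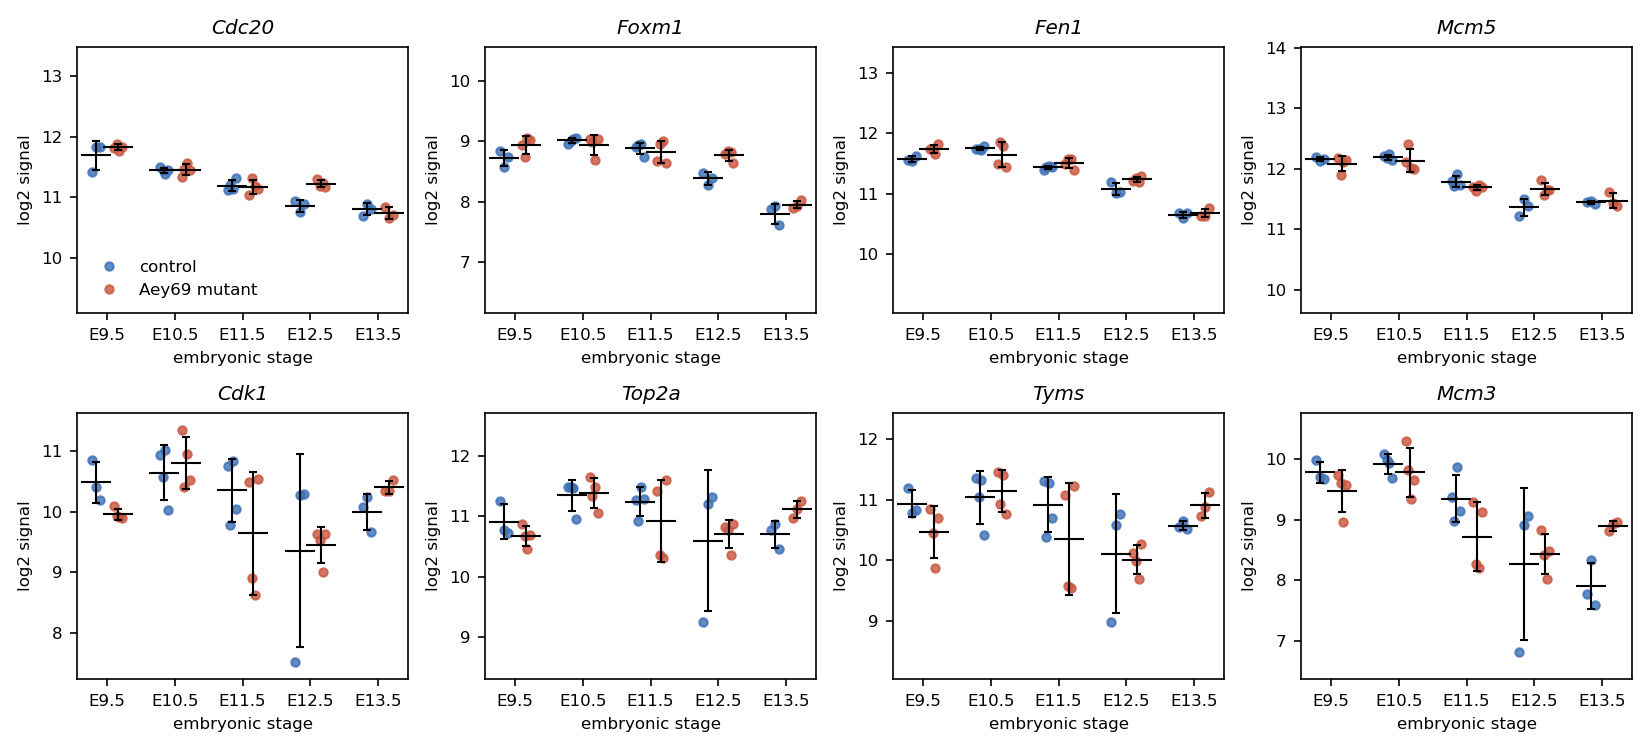
Log2 level on each array against stage for 4 steady genes (*Cdc20*, *Foxm1*, *Fen1*, *Mcm5*, top) and 4 variable genes (*Cdk1*, *Top2a*, *Tyms*, *Mcm3*, bottom), with points for arrays and bars for group means ± SD. The steady genes have within-group SDs of 0.09 to 0.13, whereas in the lower panels control 2 of E12.5 and several arrays of E11.5 sit apart from their groups.

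Between E10.5 and E11.5, the step at which both stages are heads, part of the replication genes fell in each genotype, 4 of 17 detected in controls and 8 of 18 in mutants. In controls 4 replication genes (*Mcm5*, *Cdc6*, *Fen1*, *Ccne1*) and 1 mitosis gene (*Bub1b*) of 28 detected were lower at a false discovery rate of 10%, and 0 were higher, where 5.91% of all detected genes were lower and 8.58% higher. In mutants 8 replication genes (*Mcm2*, *Mcm3*, *Mcm5*, *Mcm6*, *Cdc6*, *Cdc45*, *Rrm2*, *Ccne1*) and 3 mitosis genes (*Cdk1*, *Plk1*, *Cdc20*) of 28 were lower and 0 higher, where 13% of all genes were lower and 18.8% higher. *Ccne1*, *Cdc6* and *Mcm5* passed in both. The count of 5 in controls was 2 with median scaling, 2 with the 2 stages alone in the fit, 9 with an offset of 100 and 0 with the 4 excluded arrays, and that of 11 in mutants was 2 with the excluded arrays. Controls and mutants share no arrays in this comparison, but they were normalised together and tested in 1 model with a common estimate of the spread.

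*Mcm5*, a helicase subunit, read 12.21, 12.18, 12.24 and 12.14 in E10.5 controls and 11.80, 11.71, 11.91 and 11.73 in E11.5 controls. In mutants it read 12.11, 12.41, 12.02 and 12.00 at E10.5 and 11.70, 11.64, 11.74 and 11.70 at E11.5. All E11.5 arrays were below all E10.5 arrays in each genotype. The change was -0.41 (SE 0.10, adjusted p = 0.0089) in controls and -0.44 (SE 0.10, adjusted p = 0.0024) in mutants.

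*Cdc6*, the loader of the helicase, read 8.95, 8.45, 8.74 and 8.35 in E10.5 controls and 7.99, 7.69, 8.28 and 8.01 in E11.5 controls. In mutants it read 8.57, 8.75, 9.01 and 8.53 at E10.5 and 8.10, 7.75, 7.55 and 8.01 at E11.5. On this brightest probe the stages did not overlap in either genotype, although the lowest E10.5 control and the highest E11.5 control were close. The change was -0.63 (SE 0.17, adjusted p = 0.018) in controls, a 1.55-fold fall, and -0.86 (SE 0.17, adjusted p = 0.00054) in mutants, a 1.82-fold fall. A second *Cdc6* probe changed by -0.44 in controls (adjusted p = 0.095), but on it the stages overlapped in both genotypes. Mutants read 5.98, 5.81, 6.34 and 6.59 on it at E10.5 and 5.78, 5.97, 5.83 and 5.93 at E11.5. Without control 2 of E10.5 or control 3 of E11.5 the control change was -0.52 or -0.53 and did not pass.

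*Ccne1*, the E cyclin with the steadier probe, read 8.38, 8.49, 8.47 and 7.65 in E10.5 controls and 7.82, 7.29, 7.95 and 7.54 in E11.5 controls. In mutants it read 8.86, 8.44, 8.54 and 8.29 at E10.5 and 7.66, 7.58, 7.40 and 7.63 at E11.5. The stages overlapped in controls, through control 5 of E10.5, and did not overlap in mutants. The change was -0.60 (SE 0.16, adjusted p = 0.019) in controls and -0.97 (SE 0.16, adjusted p = 9.2e-05) in mutants. Without control 3 of E11.5 the control change was -0.48 and did not pass, and the count of genes called in controls was 3 in place of 5.

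*Fen1*, the flap nuclease, read 11.75, 11.74, 11.73 and 11.79 in E10.5 controls and 11.40, 11.44, 11.46 and 11.45 in E11.5 controls. The control groups lay apart by far more than their spread, with a change of -0.31 (SE 0.09, adjusted p = 0.036). Mutants read 11.49, 11.86, 11.79 and 11.45 at E10.5 and 11.49, 11.57, 11.58 and 11.40 at E11.5, which overlapped, and *Fen1* was not called in them. *Bub1b*, the checkpoint kinase, changed by -0.51 in controls (SE 0.15, adjusted p = 0.037), with overlapping groups. Its call was lost without control 5 of E10.5 (-0.35), control 2 of E11.5 (-0.40) or control 4 of E11.5 (-0.45). Mutants did not show a fall of *Bub1b*, with 9.52, 9.56, 9.51 and 9.97 at E10.5 and 9.46, 9.94, 9.73 and 9.63 at E11.5.

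Among the other helicase and nucleotide genes that fell in mutants, *Mcm2* read 11.15, 10.99, 11.34 and 10.70 at E10.5 and 10.70, 10.15, 10.18 and 10.54 at E11.5. *Mcm6* read 11.66, 11.55, 11.79 and 11.63 at E10.5 and 11.03, 11.02, 10.98 and 11.37 at E11.5. *Rrm2*, the ribonucleotide reductase subunit made in S phase, read 9.65, 9.36, 9.79 and 9.31 at E10.5 and 8.85, 8.64, 8.48 and 8.97 at E11.5. For *Mcm6* and *Rrm2* every E11.5 mutant was below every E10.5 mutant on the brightest probe. On the other probes of both genes the stages overlapped. The other *Rrm2* probe read 9.60, 9.48, 9.81 and 8.06 at E10.5 and 8.48, 7.14, 7.07 and 8.44 at E11.5. For *Mcm2* the lowest E10.5 mutant stood at the level of the highest E11.5 mutant. The changes were -0.65 (adjusted p = 0.0064) for *Mcm2*, -0.55 (adjusted p = 0.0067) for *Mcm6* and -0.79 (adjusted p = 0.0076) for *Rrm2*. *Mcm3* changed by -1.06 (SE 0.32, adjusted p = 0.027) and *Cdc45* by -0.46 (adjusted p = 0.04, groups overlapping). Both calls were lost without mutant 3 of E11.5 (-0.90 and -0.35), without mutant 4 of E11.5 (-0.89 and -0.35), and *Mcm3* also without mutant 2 of E10.5 (-0.88) and *Cdc45* without mutant 4 of E10.5 (-0.36).

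Of the mitosis genes in mutants, *Cdk1* read 11.36, 10.41, 10.95 and 10.53 at E10.5 and 10.49, 8.91, 8.62 and 10.55 at E11.5. Mutants 3 and 4 of E11.5 were far below the other 6 arrays, which overlapped. The change was -1.17 (SE 0.43, adjusted p = 0.067), and it did not pass without either of these (-0.92 without mutant 3, -0.83 without mutant 4), nor without mutant 2 or 4 of E10.5 (-0.99 and -1.12). *Plk1*, a kinase of mitotic entry, changed by -0.48 (adjusted p = 0.013). *Cdc20* changed by -0.28 (adjusted p = 0.051), and its call was lost without mutant 4 of E10.5 (-0.25) or mutant 2 of E11.5 (-0.24).

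The members that did not pass lay mostly on the same side of 0. In controls 17 of 17 detected replication genes and 11 of 11 mitosis genes had a change below 0, with medians of -0.37 and -0.25, and the median over all genes was 0.01. In mutants 17 of 18 and 7 of 10 were below 0, with medians of -0.49 and -0.23 and 0.06 over all genes. In controls *Mcm2* changed by -0.25, *Mcm6* by -0.38, *Pcna* by -0.55, *Cdk1* by -0.29, *Top2a* by -0.11, *Cdc20* by -0.25 and *Foxm1* by -0.13, none of which passed, nor did *Mcm3* (-0.58), *Aurka* (-0.42) or *Plk1* (-0.37). In mutants *Pcna* changed by -0.26, *Top2a* by -0.46 and *Foxm1* by -0.12 without passing, likewise *Tyms* (-0.79), *Mcm4* (-0.50), *Birc5* (-0.27) and *Aurka* (-0.19). Other probes of *Birc5* (-1.14 and -1.04) and *Tyms* (-0.88) passed in mutants. The changes with the largest size that did not pass were those of *Mcm7* in controls (-1.10) and *Ccne2* in mutants (-1.61), the genes with the widest spread.

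**Figure D3:**
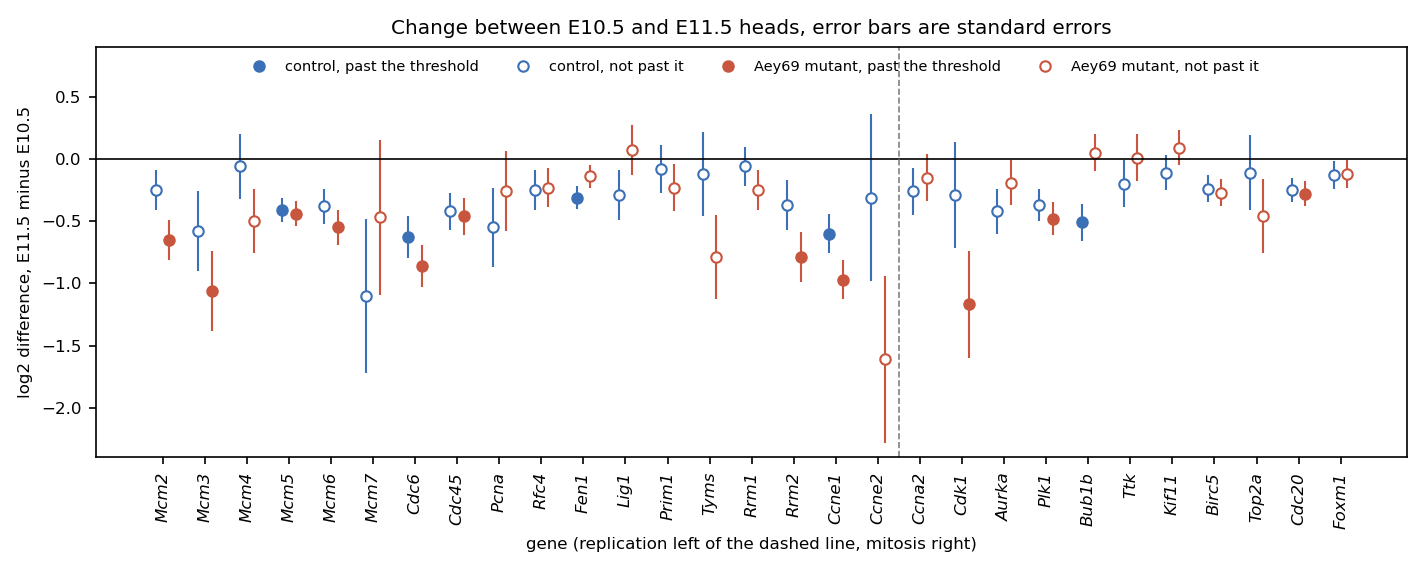
Log2 difference between E11.5 and E10.5 heads (y axis) for each detected gene (x axis, by role) in controls and in mutants, with bars for the standard error and filled points for a false discovery rate under 10%. Most points lie below 0, and *Ccne1*, *Cdc6* and *Mcm5* are filled in both genotypes.

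Markers of other cells moved at the same step, so that the heads of both stages differed in more than the division genes. Of 5 muscle markers 3 fell in each genotype, and their mean level ran from 8.50 to 9.24 in E10.5 controls and from 6.26 to 8.94 in E11.5 controls, and from 8.39 to 9.06 and from 6.54 to 7.18 in mutants. *Actc1*, the cardiac actin gene, had a level of 12.05 ± 0.24 and 7.83 ± 2.22 in controls and of 11.9 ± 0.23 and 6.7 ± 0.39 in mutants (SD, n = 4 each). Lens markers rose in 2 of 3 detected in controls and 1 of 2 in mutants, retinal progenitor markers in 1 of 2 in each, and mesenchyme markers in 0 of 6 and 2 of 6. Of 9 markers of postmitotic neurons 7 were detected and 6 rose in each genotype, and their mean level ran from 6.59 to 8.05 in E10.5 controls and from 8.22 to 8.92 in E11.5 controls, and from 6.53 to 8.30 and from 8.34 to 8.76 in mutants. Of 5 erythroid markers 4 had a probe and 0 passed, with a mean level of 9.13 to 13.24 in E10.5 controls, 9.28 to 12.99 in E11.5 controls, 11.05 to 13.28 in E10.5 mutants and 8.67 to 13.08 in E11.5 mutants. Mutants 3 and 4 of E11.5, which were low in *Cdk1* and *Mcm3*, had the lowest erythroid means of their group (8.67 and 8.79). The part of these cells in the changes was not tested.

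From E9.5 whole embryos to E10.5 heads few genes passed. In controls *Kif11*, the spindle motor, read 9.40, 9.10 and 8.75 at E9.5 and 9.63, 9.73, 9.59 and 9.49 at E10.5, a rise of 0.53 (SE 0.16, adjusted p = 0.073). All E10.5 controls were above all E9.5 controls. It was the only one of 29 detected genes that passed, where 2.13% of all genes were higher and 4.63% lower. The count was 2 without control 2 of E9.5 and 0 without control 3 or 5 of E9.5 or control 2, 3 or 4 of E10.5, for which the *Kif11* change was 0.53, 0.36, 0.52, 0.49 and 0.53.

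In mutants *Rrm1*, the large ribonucleotide reductase subunit, rose by 0.53 (adjusted p = 0.097) and *Cdc20* fell by 0.37 (adjusted p = 0.073), of 28 detected genes, where 1.81% of all genes were higher and 1.8% lower. *Cdc20* read 11.82, 11.88, 11.76 and 11.83 in E9.5 mutants and 11.34, 11.46, 11.56 and 11.44 in E10.5 mutants, which did not overlap. This held for its brightest probe alone, and the stages overlapped on each of its other probes. The next brightest probe read 10.96, 10.90, 10.95 and 11.11 at E9.5 and 10.88, 10.83, 11.09 and 10.90 at E10.5. The count was 0 without mutant 3, 4 or 5 of E9.5 or mutant 2 or 3 of E10.5, 1 without mutant 4 of E10.5 and 5 without mutant 5 of E10.5. Without these arrays the change of *Cdc20* ran from -0.41 to -0.33 and that of *Rrm1* from 0.44 to 0.59. The genes that did not pass in controls included *Mcm7* (1.18), *Ccne2* (0.54), *Top2a* (0.43), *Rfc4* (-0.35), *Foxm1* (0.30), *Pcna* (-0.27), *Cdc20* (-0.25), *Cdk1* (0.16), *Mcm6* (-0.06), *Ccne1* (-0.04) and *Mcm2* (0.02). In mutants they included *Ccne2* (1.51), *Cdk1* (0.86), *Top2a* (0.71), *Tyms* (0.67), *Lig1* (-0.56), *Ccne1* (0.51), *Bub1b* (-0.41), *Mcm2* (0.28), *Mcm6* (0.25), *Pcna* (-0.17) and *Foxm1* (0.00). Medians at this step were 0.01 and -0.02 for the replication and mitosis genes in controls and 0.21 and 0.05 in mutants, against -0.02 and -0.06 over all genes.

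From heads at E11.5 to the region of the eye at E12.5 14 of 28 genes passed in controls and 3 of 29 in mutants. In controls 1 gene was higher and 13 were lower, where 9.79% of all genes were higher and 7.07% lower. In mutants 1 was higher and 2 were lower, where 6.5% of all genes were higher and 4.73% lower. The count of 14 in controls was 2 with median scaling, 7 with the 2 stages alone in the fit and 0 with the 4 excluded arrays. On the brightest probe of each gene *Rfc4* rose and *Aurka* and *Birc5* fell in both genotypes. The medians were -0.40 for replication and -0.52 for mitosis genes in controls, -0.15 and -0.19 in mutants, and -0.02 over all genes in each.

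*Rfc4*, the clamp loader subunit, read 8.41, 8.18, 8.57 and 8.79 in E11.5 controls and 8.82, 9.15 and 9.12 in E12.5 controls. In mutants it read 8.82, 8.33, 8.07 and 8.83 at E11.5 and 9.21, 9.13, 9.08 and 9.38 at E12.5. On this brightest probe its direction ran against that of the other called genes, and the stages did not overlap in either genotype. The rise on it was 0.54 (SE 0.17, adjusted p = 0.054) in controls and 0.69 (SE 0.16, adjusted p = 0.0095) in mutants. The other *Rfc4* probe had a mean level of 6.07 at E11.5 and 6.08 at E12.5 in mutants, with overlapping stages. In controls its means were 5.82 and 6.13. For *Rfc4* in mutants the rise therefore depended on the probe. The control call was lost without control 2 or 3 of E11.5 or control 3 or 5 of E12.5 (0.44 to 0.52).

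Of the 14 control calls at this step 7 rested on control 2 of E12.5. Without this array 7 genes were called: *Rfc4*, *Cdc45*, *Fen1*, *Plk1*, *Birc5*, *Cdc20* and *Foxm1*. The calls of *Mcm2* (-0.59, and -0.37 without the array), *Mcm3* (-1.08 and -0.35), *Mcm4* (-0.80 and -0.24), *Mcm5* (-0.42 and -0.34), *Rrm1* (-0.56 and -0.27), *Rrm2* (-0.86 and -0.44) and *Aurka* (-0.73 and -0.51) were lost. *Mcm3* was also lost without control 2 or 4 of E11.5 (-1.07 and -0.90), *Mcm4* without control 2, 3 or 4 of E11.5 (-0.76, -0.85 and -0.71), and *Mcm2* and *Rrm1* without control 4 of E11.5 (-0.51 and -0.53). *Plk1* read 10.59, 10.40, 10.39 and 10.24 in E11.5 controls and 9.46, 9.73 and 9.95 in E12.5 controls, a fall of 0.69 (SE 0.14, adjusted p = 0.0024). *Foxm1* read 8.90, 8.93, 8.95 and 8.74 at E11.5 and 8.48, 8.28 and 8.39 at E12.5, a fall of 0.50 (SE 0.12, adjusted p = 0.0078). Neither gene overlapped between the stages, and control 2 was the highest of the E12.5 controls for *Foxm1*. *Cdc45* changed by -0.75 (adjusted p = 0.0035), *Birc5* by -0.54 (adjusted p = 0.0041), *Fen1* by -0.36 (adjusted p = 0.026) and *Cdc20* by -0.33 (adjusted p = 0.053), the last of which was lost without control 5 of E11.5 (-0.29) or control 3 of E12.5 (-0.28). In mutants *Aurka* changed by -0.56 (adjusted p = 0.076) and *Birc5* by -0.34 (adjusted p = 0.081), of which the first was lost in 7 of 8 fits without 1 array (-0.59 to -0.50) and the second in 6 of 8 (-0.35 to -0.29). Without mutant 2 or 4 of E11.5 or mutant 4 or 5 of E12.5, 1 gene in place of 3 was called.

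The members that did not pass at the step to E12.5 in controls included *Ccne2* (-1.09), *Cdk1* (-1.0), *Tyms* (-0.81), *Top2a* (-0.64), *Mcm7* (-0.37), *Pcna* (0.32), *Kif11* (-0.29), *Ccne1* (-0.24) and *Mcm6* (-0.20). In mutants they included *Prim1* (0.51), *Ccne2* (-0.46), *Lig1* (0.44), *Pcna* (0.36), *Ccna2* (0.35), *Kif11* (-0.27), *Ttk* (0.22), *Top2a* (-0.21), *Cdk1* (-0.19), *Ccne1* (-0.19), *Mcm2* (-0.12), *Cdc20* (0.05), *Foxm1* (-0.05) and *Mcm6* (0.00). At this step 5 of 5 lens, 4 of 6 mesenchyme, 1 of 5 muscle, 1 of 8 neuron and 1 of 2 retinal progenitor markers detected rose in controls, and 2 of 7 neuron markers and 0 of the lens, mesenchyme, muscle and retinal progenitor markers in mutants. Their part in the changes was not tested.

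From the eye region at E12.5 to the eye at E13.5 3 genes fell in controls and 7 in mutants, with 1 rise in mutants. In controls *Fen1*, *Kif11* and *Foxm1* of 29 detected genes were lower and 0 higher, where 10.6% of all genes were lower and 13.1% higher. In mutants *Fen1*, *Rrm2*, *Plk1*, *Bub1b*, *Kif11*, *Cdc20* and *Foxm1* were lower and *Tyms* was higher, where 23.5% of all genes were lower and 19.4% higher. In both genotypes the share of members that fell was near that of all genes. The medians were 0.09 for replication and -0.06 for mitosis genes in controls, with 0.08 over all genes, and 0.10 and -0.32 in mutants, with -0.02 over all genes.

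*Foxm1* read 8.48, 8.28 and 8.39 in E12.5 controls and 7.87, 7.92 and 7.61 in E13.5 controls. In mutants it read 7.90, 7.93 and 8.02 at E13.5, after 8.78, 8.83, 8.82 and 8.64 at E12.5. Every E13.5 array was below every E12.5 array of its genotype. The fall was 0.58 (SE 0.13, adjusted p = 0.0017) in controls and 0.81 (SE 0.12, adjusted p = 3.8e-06) in mutants, and a second *Foxm1* probe fell by 0.76 and 0.87.

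*Fen1* read 11.20, 11.01 and 11.03 in E12.5 controls and 10.68, 10.60 and 10.68 in E13.5 controls. In mutants it read 10.64, 10.64 and 10.76 at E13.5, after 11.22, 11.27, 11.20 and 11.29 at E12.5. The stages lay well apart in both genotypes, and *Fen1* was the single replication gene that fell at this step in both. The fall was 0.43 (adjusted p = 0.0063) in controls and 0.56 (adjusted p = 7.7e-05) in mutants. *Kif11* changed by -0.56 in controls (adjusted p = 0.026), which was lost without control 2 of E12.5 (-0.37), and by -0.66 in mutants (adjusted p = 0.0024). Without control 3 of E12.5 the count in controls was 5 in place of 3.

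*Cdc20* read 11.30, 11.19, 11.23 and 11.16 in E12.5 mutants and 10.84, 10.65 and 10.70 in E13.5 mutants, a fall of 0.49 (SE 0.11, adjusted p = 0.00089). In controls its E12.5 levels of 10.94, 10.75 and 10.88 overlapped the E13.5 levels of 10.69, 10.89 and 10.81. *Plk1* fell by 0.61 (adjusted p = 0.0022) and *Bub1b* by 0.66 (adjusted p = 0.0032) in mutants. *Rrm2* changed by -0.60 (adjusted p = 0.05) and *Tyms*, thymidylate synthase, by 0.89 (adjusted p = 0.09). The *Rrm2* call was lost without mutant 3 of E12.5 or mutant 2, 4 or 5 of E13.5 (-0.62 to -0.55), and the *Tyms* call without mutant 1, 3 or 4 of E12.5 or any mutant of E13.5 (0.79 to 0.99).

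The members that did not pass in controls included *Mcm7* (-1.71), *Cdk1* (0.63), *Mcm4* (0.59), *Prim1* (0.58), *Pcna* (0.51), *Ttk* (0.41), *Ccna2* (0.37), *Mcm2* (0.36), *Ccne1* (0.14), *Mcm6* (-0.11), *Top2a* (0.10) and *Cdc20* (-0.06). In mutants they included *Ccne2* (1.16), *Cdk1* (0.95), *Pcna* (0.77), *Mcm4* (0.48), *Top2a* (0.40), *Aurka* (-0.32), *Ccne1* (0.24), *Mcm6* (0.11) and *Mcm2* (0.01). At the same step 6 of 6 mesenchyme markers rose in mutants, from a mean level of 6.98 to 7.61 to one of 10.31 to 10.62. In mutants 5 of 5 muscle and 2 of 4 erythroid markers rose too, 1 of 4 detected lens markers rose and 1 fell, and 7 of 7 neuron markers fell. In controls 5 of 5 lens, 4 of 6 mesenchyme and 2 of 5 muscle markers rose and 5 of 8 neuron markers fell. Of 3 detected retinal progenitor markers 1 rose in each genotype, and 2 fell in mutants and 1 in controls. The part of these cells in the changes was not tested.

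Some genes had probes that disagreed at this step. *Lig1*, DNA ligase I, had a brightest probe that did not pass, while 2 other probes changed by -2.14 and -0.99 in controls and by -2.14 and -0.83 in mutants (adjusted p = 0.0047, 6e-04, 0.0013 and 0.0011). *Tyms* had 1 other called probe at 0.82 and 1 at -0.28 in mutants. *Birc5*, survivin, had 2 other probes that were higher in mutants (1.26 and 1.05) and 1 that was higher in controls (0.77), with no call of its brightest probe. The brightest *Birc5* probe changed by 0.22 in each genotype. For *Lig1* and *Birc5* the call therefore depended on the probe, and for *Tyms* in mutants the called direction did.

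In the comparison of mutants with controls *Mcm3* at E13.5 was the single member that passed the false discovery rate at any stage. The shares of all genes called were 0%, 0%, 0.0868%, 0.623% and 1.64% in order of stage. At an unadjusted p under 0.05, 1 of 28 genes was lower in mutants at E9.5, where 4.13% of all genes were. From E10.5 on, 0 of 29, 2 of 27, 5 of 29 and 8 of 29 genes differed at that threshold, where 0.942%, 8.98%, 15.5% and 20.7% of all genes did. The comparisons of genotype share arrays with the stage steps above.

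At E9.5 *Cdk1* read 10.85, 10.41 and 10.20 in controls and 10.09, 9.94, 9.91 and 9.90 in mutants. The groups did not overlap, and the difference was -0.53 (SE 0.18, adjusted p = 0.64). The median difference was -0.18 for replication genes, 14 of 18 of them below 0, and -0.06 for mitosis genes, against 0.02 over all genes. *Top2a* differed by -0.24, *Pcna* by -0.12, *Mcm2* by -0.12, *Mcm6* by -0.24, *Ccne1* by -0.26, *Cdc20* by 0.13 and *Foxm1* by 0.22. At E10.5 the medians were 0.09 and -0.02, and *Top2a*, *Pcna*, *Mcm2*, *Mcm6*, *Cdk1*, *Ccne1*, *Cdc20* and *Foxm1* differed by 0.03, -0.02, 0.13, 0.08, 0.17, 0.29, 0.01 and -0.07. At E11.5 the medians were -0.12 and -0.04, and the same genes differed by -0.32, 0.27, -0.27, -0.10, -0.71, -0.08, -0.02 and -0.06. The 2 genes under the unadjusted threshold at E11.5 were *Mcm3* at -0.63 and *Bub1b* at 0.46, each with overlapping groups. The other differences of the largest size were those of *Ccne2* (-0.83), *Tyms* (-0.47) and *Mcm4* (-0.37) at E9.5, of *Mcm7* (-1.15), *Prim1* (0.25), *Ttk* (0.14) and *Plk1* (-0.10) at E10.5, and of *Ccne2* (-1.16), *Tyms* (-0.56) and *Ttk* (0.35) at E11.5.

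At E12.5 mitosis genes were measured higher in mutants, and 5 genes had an unadjusted p under 0.05, all higher, where 8.84% of all genes were higher at that threshold. *Foxm1* read 8.48, 8.28 and 8.39 in controls and 8.78, 8.83, 8.82 and 8.64 in mutants, a difference of 0.38 (SE 0.13, adjusted p = 0.41). *Cdc20* read 10.94, 10.75 and 10.88 in controls and 11.30, 11.19, 11.23 and 11.16 in mutants, a difference of 0.36 (SE 0.13, adjusted p = 0.43). *Plk1* read 9.46, 9.73 and 9.95 in controls and 10.34, 10.14, 10.28 and 10.04 in mutants, a difference of 0.49 (SE 0.16, adjusted p = 0.40). In each of these the groups did not overlap on the brightest probe, and none passed the false discovery rate. On the other *Cdc20* probes the groups overlapped. The others were *Bub1b* (0.44, adjusted p = 0.35) and *Cdc45* (0.48, adjusted p = 0.45). All 11 detected mitosis genes had a difference above 0, with a median of 0.34, and 14 of 18 replication genes did, with a median of 0.19, against 0.04 over all genes.

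Control 2 of E12.5, with 47.6% of probes detected, bore on these values. It was below both other controls in 14 of 18 replication genes and in 5 of 11 mitosis genes, and it was the lowest of the 7 arrays in 13 and 5. *Cdk1* read 7.51 in control 2, 10.28 and 10.29 in the other controls, and 9.63, 9.54, 9.0 and 9.64 in mutants. *Top2a*, topoisomerase II, read 9.26 in control 2, 11.21 and 11.33 in the other controls, and 10.83, 10.77, 10.37 and 10.88 in mutants. In both genes the mutants lay between control 2 and the other controls. The replication genes *Fen1*, *Lig1* and *Mcm7* instead were highest in control 2 among the controls. So were the mitosis genes *Foxm1*, *Cdc20* and *Kif11*. These are levels of the brightest probe of each gene. The other *Cdc20* probes and the next brightest *Lig1* probe were lowest in control 2 among the controls.

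Without control 2 the E12.5 comparison called 9 members, where 33.3% of all genes were called, a share near that of the members. *Lig1* (0.71, adjusted p = 0.012), *Bub1b* (0.44, adjusted p = 0.063), *Foxm1* (0.43, adjusted p = 0.068) and *Cdc20* (0.40, adjusted p = 0.081) were higher in mutants. *Ccne2* (-1.28, adjusted p = 0.011), *Cdk1* (-0.83, adjusted p = 0.019), *Tyms* (-0.66, adjusted p = 0.034), *Top2a* (-0.56, adjusted p = 0.058) and *Mcm3* (-0.56, adjusted p = 0.099) were lower. These are values of the brightest probe of each gene. The next brightest *Lig1* probe read 7.04 and 7.58 in the remaining controls and 7.18, 6.77, 6.46 and 6.67 in mutants. On the other *Lig1* probes every mutant was above the remaining controls. With all arrays *Cdk1* differed by 0.09 and *Top2a* by 0.11. The median difference of the replication genes went from 0.19 to -0.02, with 8 of 18 above 0, and that of the mitosis genes stayed at 0.34, with 8 of 11 above 0. The other named genes differed with all arrays by 0.31 (*Pcna*), 0.20 (*Mcm2*), 0.10 (*Mcm6*), -0.03 (*Ccne1*), 0.63 (*Rrm2*), -0.54 (*Ccne2*) and 0.46 (*Aurka*).

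**Figure D4:**
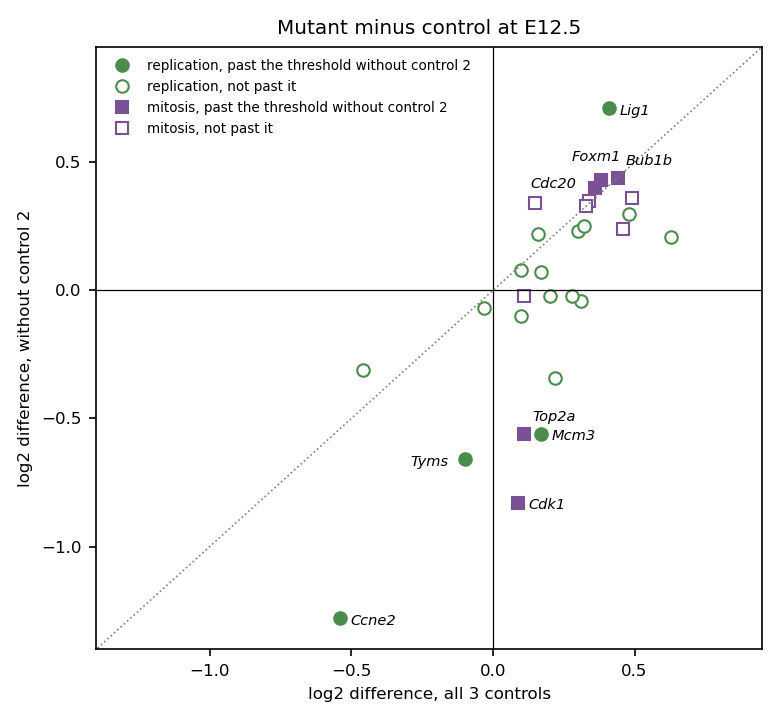
Log2 difference of mutants from controls at E12.5 with all 3 controls (x axis) and without control 2 (y axis) for each detected gene, with filled points for those past the threshold without control 2 and a dotted line where both values are equal. *Cdk1* goes from 0.09 to -0.83 and *Top2a* from 0.11 to -0.56, whereas *Foxm1* (0.38 and 0.43), *Cdc20* (0.36 and 0.40) and *Bub1b* (0.44 and 0.44) differ little between both. For *Cdc20* these are values of its brightest probe, and its other probes were lowest in control 2 among the controls.

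The E12.5 groups also differed in markers of other cells. Of 5 lens fiber markers 5 were lower in mutants, with a mean level of 8.35 to 9.07 in controls and 5.10 to 5.19 in mutants, and 3 of 6 mesenchyme markers were lower, with means of 9.03 to 9.29 and 6.98 to 7.61. The mean of the 4 erythroid markers was 8.75 in control 2, 8.75 to 13.03 over the controls and 9.28 to 10.54 in mutants, and 0 of 4 passed. Of 3 detected retinal progenitor markers 1 was lower (*Lhx2*, with levels of 7.95 ± 0.22 in 3 controls and 6.9 ± 0.12 in 4 mutants), as was 1 of 5 muscle markers, and 0 of 8 neuron markers passed. Among the lens markers *Cryaa* and *Crygd* were detected in 0 of 4 mutants. The part of these cells in the differences was not tested.

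At E13.5 *Mcm3*, a subunit of the MCM helicase, read 7.78, 8.33 and 7.59 in controls and 8.81, 8.93 and 8.97 in mutants. Every mutant was above every control. The levels were 8.90 ± 0.08 (SD, n = 3) and 7.90 ± 0.38 (SD, n = 3), a 2.00-fold difference (log2 1.00, SE 0.19, adjusted p = 0.089). The call was lost without control 2 (0.94), control 5 (0.85), mutant 2 (1.05), mutant 4 (0.99) or mutant 5 (0.97).

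Other S phase genes at E13.5 were measured higher in mutants without passing. *Pcna*, the sliding clamp, read 7.42, 7.79 and 7.35 in controls and 8.10, 8.15 and 8.06 in mutants, a difference of 0.58 (SE 0.14, adjusted p = 0.14). *Ccne2* read 6.08, 6.59 and 5.80 in controls and 7.16, 6.83 and 7.35 in mutants, a difference of 0.96 (SE 0.22, adjusted p = 0.13). Neither overlapped between the genotypes. *Mcm7* read 5.37, 6.85 and 4.75 in controls and 7.31, 6.68 and 7.53 in mutants, with control 4 above mutant 4, and differed by 1.52 (SE 0.49, adjusted p = 0.20). All 8 genes under the unadjusted threshold were higher, where 8.74% of all genes were higher at that threshold, and the others were *Mcm6* (0.32), *Tyms* (0.34), *Cdk1* (0.41) and *Top2a* (0.42). Without control 4, which had the highest level of the 3 controls in these 3 genes and in *Mcm3*, 4 members passed, where 9.93% of all genes did: *Mcm3* (1.22), *Mcm7* (2.11), *Pcna* (0.72) and *Ccne2* (1.18).

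The late-cycle genes that were measured higher in E12.5 mutants differed at E13.5 by -0.07 (*Cdc20*) and 0.15 (*Foxm1*). *Mcm2* differed by -0.15 and *Ccne1* by 0.07. The medians were 0.07 for replication genes and 0.10 for mitosis genes against -0.05 over all genes, and with median scaling in place of quantile normalization the first was -0.07 against -0.16 over all genes. *Aurka* differed by 0.30. The 5 lens markers had a mean level of 13.45 to 13.81 in control eyes and 4.84 to 4.90 in mutant eyes, and 5 of 5 were lower. Of 5 retinal progenitor markers with a probe 3 were detected and 0 passed, with means of 6.36 to 6.60 and 5.66 to 5.89. At an unadjusted p under 0.05, 3 of 3 retinal progenitor and 3 of 8 neuron markers were lower in mutants, and 3 of 6 mesenchyme, 3 of 5 muscle and 2 of 4 erythroid markers were higher. Their part in the differences was not tested.

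The change of the genotype difference from stage to stage was tested as an interaction. Of 29 detected genes 0 passed at any of the 4 steps, where 0.021%, 0.0104%, 0.816% and 2.88% of all genes did. At an unadjusted p under 0.05 the counts were 1, 1, 5 and 3, where 6.73%, 5.1%, 9.49% and 17.6% of all genes were under it. From E11.5 to E12.5 these were *Plk1* (0.70, SE 0.19, adjusted p = 0.17), *Rrm2* (0.93, SE 0.30), *Foxm1* (0.44, SE 0.16), *Cdc20* (0.39, SE 0.14) and *Mcm5* (0.39, SE 0.14). From E12.5 to E13.5 *Cdc20* changed by -0.43 (SE 0.15, adjusted p = 0.22), *Cdc45* by -0.50 and *Bub1b* by -0.48. In the earlier steps *Ccne1* (0.55, E9.5 to E10.5) and *Bub1b* (0.56, E10.5 to E11.5) were under the threshold. The count was 2 without control 5 of E12.5 for the step to E12.5 and 2 without control 2 of E12.5 for the step to E13.5. A difference of the genotype effect between stages was therefore not shown for any of these genes.

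The mean log2 level of the 18 replication genes in controls, in order of stage from E9.5, was 9.64 ± 0.19, 9.69 ± 0.28, 9.31 ± 0.21, 8.93 ± 0.39 and 8.96 ± 0.14 (SD, n = 3, 4, 4, 3 and 3). In mutants it was 9.47 ± 0.15, 9.69 ± 0.14, 9.12 ± 0.33, 9.09 ± 0.13 and 9.23 ± 0.05 (SD, n = 4, 4, 4, 4 and 3). The mean of the 11 mitosis genes was 9.49 ± 0.04, 9.56 ± 0.04, 9.30 ± 0.06, 8.88 ± 0.29 and 8.88 ± 0.08 in controls and 9.43 ± 0.06, 9.56 ± 0.08, 9.29 ± 0.13, 9.18 ± 0.08 and 9.02 ± 0.06 in mutants. Both lists had their highest mean at E10.5, and the replication list had the wider spread in 9 of 10 groups.

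The replication mean less the mitosis mean, which moves where S phase and mitosis genes part, lay between -0.16 and 0.21 in the 10 groups. At E11.5 it was 0.01 ± 0.16 in controls and -0.16 ± 0.21 in mutants, with overlapping ranges. At E13.5 it was 0.08 ± 0.08 in controls (0.03 to 0.17) and 0.21 ± 0.04 in mutants (0.18 to 0.26), whose ranges lay next to each other. These means were not tested, since their members were chosen with results known.

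**Figure D5:**
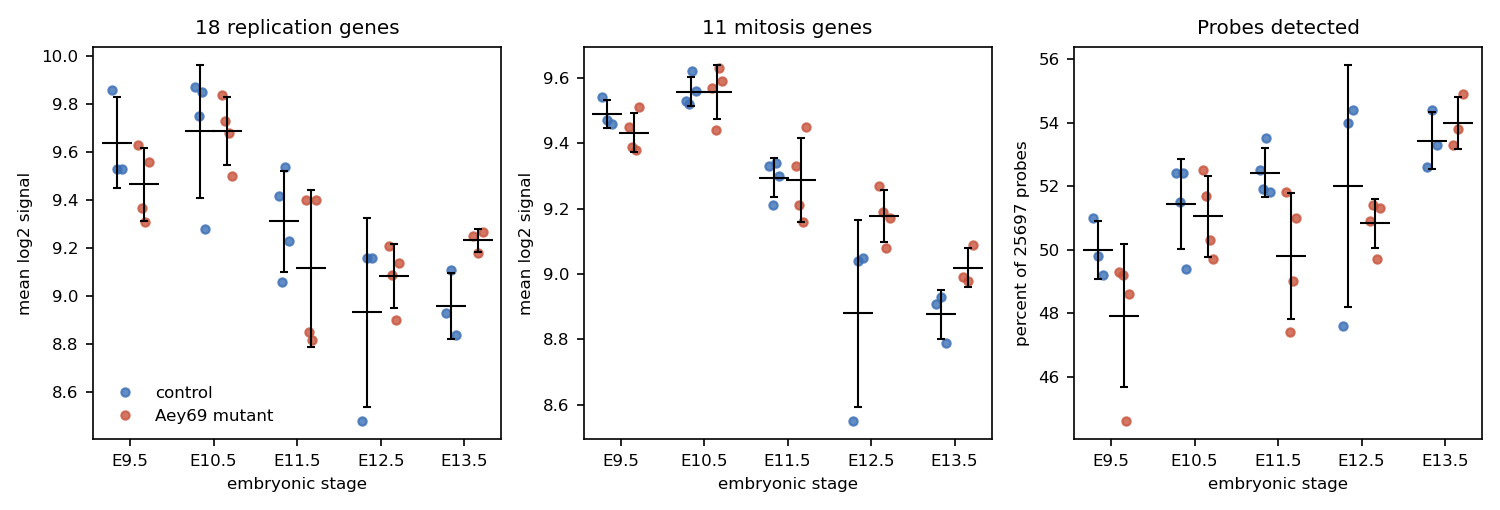
Mean log2 level of the 18 replication genes (left) and the 11 mitosis genes (middle), and the percent of probes detected (right), on each array (points) by stage and genotype, with bars for group means ± SD. Both lists are highest at E10.5, and at E12.5 control 2 has the lowest replication mean at 8.48.

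Genes of the same pathways outside the 36 were described from lists of 48 replication and 60 mitosis genes, of which 45 and 51 had a probe. At the step from E10.5 to E11.5, 6 of 38 detected replication genes and 3 of 42 mitosis genes fell in controls, and 0 rose, where 5.91% of all genes were lower. The falls with the largest size were *E2f3* (-0.57), a transcription factor of S phase entry, *Dctpp1* (-0.55), a nucleotide pyrophosphatase, and *Rfc5* (-0.48), a clamp loader subunit, and among mitosis genes *Spc24* (-0.55), a kinetochore protein, and *Kif15* (-0.46), a spindle motor. *Cdt1*, which loads the helicase with *Cdc6*, fell by 0.46 in controls and by 0.40 in mutants. In mutants 5 of 37 replication genes fell and 2 rose (*Orc3* at 0.57, *E2f1* at 0.47), and 5 of 42 mitosis genes fell and 1 rose (*Nusap1* at 0.56), where 13% of all genes were lower, a share near that of these lists. The falls with the largest size in mutants were *Cdca8* (-1.63), a partner of the Aurora B kinase, *Mad2l1* (-0.78), a checkpoint protein, and *Rpa2* (-0.70), a single-strand binding protein.

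At the step from E9.5 to E10.5, 0 of 38 and 0 of 42 passed in controls, and *Timeless* (-0.45) alone passed in mutants. At the step from E11.5 to E12.5, 10 of 40 replication genes and 11 of 42 mitosis genes fell in controls, and 1 mitosis gene, *Tpx2* (0.41), rose, where 7.07% of all genes were lower and 9.79% higher. In mutants 5 of 39 and 3 of 42 fell and 2 and 3 rose, where 4.73% of all genes were lower and 6.5% higher. From E12.5 to E13.5, 23.5% of all genes were lower in mutants and 10.6% in controls. In mutants 17 of 41 replication genes and 15 of 42 mitosis genes fell, led by *E2f2* (-1.54), *Chtf18* (-1.14), *Chaf1b* (-0.94) and *Mybl2* (-0.91), and 1 and 2 rose. In controls 1 replication gene fell (*E2f2*, -2.14) and 5 and 3 rose, among them *Ube2c* (0.90), the ubiquitin-conjugating enzyme that works with *Cdc20*. The difference between these counts was not tested.

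Between genotypes 1 gene of these lists passed. *E2f2*, a transcription factor of the E2F family, had a level of 7.61 ± 0.11 in mutants and 7.03 ± 0.05 in controls at E13.5 (SD, n = 3 and 3), a difference of 0.58 (adjusted p = 0.089). At E12.5, 13 of 40 replication genes and 11 of 42 mitosis genes were higher in mutants at an unadjusted p under 0.05, where 8.84% of all genes were, and 0 were lower. These counts were taken with control 2 among the controls, without which the share of all genes called at the false discovery rate went from 0.623% to 33.3%, with 1766 higher and 1400 lower.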

How the data were processed

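RNA of homozygous *Aey69* mutants and wild-type littermates had been hybridised to Illumina MouseRef-8 BeadChips, 40 arrays in all. The deposited values are the bead signal intensity of each probe after background subtraction in GenomeStudio, beside which the authors gave a detection p-value, and a linear intensity table that they had quantile-normalised over 36 arrays after adding an offset. They excluded 4 arrays, which were also left out here except in 1 alternative. The deposited signals ran from -21 to 28964. Here an offset of 22 was added, the 36 arrays were quantile-normalised and converted to log2, and differences were tested per probe with limma 3.58.1 in R 4.3.3 (lmFit and eBayes, all adjusted p-values by Benjamini-Hochberg over 25697 probes, false discovery rate 10%). Genotypes were compared within each stage, and stage steps and interactions in 1 model of 10 groups. The detection filter (p under 0.05 on at least 2 of 3 or 3 of 4 arrays of a group) was applied after the fit. Of the probes 23978 had 1 gene name in the platform annotation and 1719 none or several, and a gene was represented by its probe with the highest mean. Levels of different probes were not compared.

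The members and lists were chosen with earlier results of these data known. Named in every comparison were *Top2a*, *Pcna*, *Mcm2*, *Mcm6*, *Cdk1*, *Ccne1*, *Cdc20* and *Foxm1* (the rule also held *Mki67* and *Ccnb1*, without a named probe), members past the threshold, and up to 3 per list with the largest change. Other pathway genes were named by the largest change among those that passed, with a few beyond 3 per direction chosen after their values were seen. Replicates were separate samples, but the sources used here do not say for each whether it came from 1 embryo or a pool, and precision is limited by how many arrays there are. The test procedure was tested on simulated data. At E9.5 the deviations of same-numbered samples of the titles correlated at 0.11 to 0.57 over 3 pairs, which did not establish a pairing. The block on that number is among the alternatives. Alternatives were other starting values, scaling, offset, filter, probe rule, threshold, samples in the fit, pairing and leaving out arrays.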

Additional observations from a re-analysis of the deposited data

Results flagged for a closer look

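In the 60 groups of 4 arrays tested over 8 genes and both list means, 7 held an array whose gap to the nearest of the others, divided by the range of the group, was above Dixon's critical value for 4 samples, where chance gives about 1 in 20. Control 5 of E10.5, with 49.4% of probes detected, was low in *Top2a* at 10.96 (the others 11.47 to 11.49) and in *Ccne1* at 7.65 (8.38 to 8.49). Mutant 4 of E12.5, with 49.7% detected, was low in *Pcna* at 6.77 (7.50 to 7.52) and in *Cdk1* at 9.0 (9.54 to 9.64). *Mcm6* was low in mutant 4 of E9.5 at 11.02 (11.48 to 11.57), the array with 44.6% of probes detected, and high in mutant 5 of E11.5 at 11.37 (10.98 to 11.03). *Foxm1* was low in mutant 4 of E10.5 at 8.69 (8.99 to 9.04). The causes were not tested.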

How the results depend on the processing

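Of the 48 gene results past the threshold, all 48 kept their call with the authors' processed values, with log2 before quantile normalization and without the detection filter, 47 with an offset of 100, 45 with the replicate block, 37 without the 3 arrays with the lowest share of detected probes, 30 with other samples in the fit, 23 with median scaling and 5 with the 4 excluded arrays added. In 353 fits that left out 1 array, 270 kept the call and 83 lost it, none changed sign, and 23 results lost it in no such fit. The causes were not tested.

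With the replicate block on the processed values 0 members were called between genotypes at E13.5 and 1 from E9.5 to E10.5 in mutants, and no other count moved by more than 1.5 times. The paired numbers correlated at 0.50, 0.57 and 0.11 at E9.5 and at 0.55, 0.65, 0.06 and 0.80 at E10.5. Correlations between samples of different numbers were not computed, so that a pairing was not established at either stage. The paired numbers correlated at -0.57 to 0.61 at E11.5, -0.55 to 0.01 at E12.5 and -0.35 to -0.11 at E13.5, where the samples share only a number. A block on the slide was not run, since the headers name none.

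Median scaling moved the median of all genes at E9.5 from 0.02 to -0.33, and the medians between genotypes were then -0.66 (replication) and -0.45 (mitosis) at E9.5, -0.17 (mitosis) at E11.5 and -0.07 (replication) at E13.5. It called 0, 2 and 2 members at the first 3 steps in controls, and 5 from E9.5 to E10.5 and 1 from E11.5 to E12.5 in mutants. An offset of 100 called 3 at E12.5 and 3 at E13.5 between genotypes, 3 and 9 at the first steps in controls, and 1 in each of the last interactions (into E12.5 and into E13.5), with a mitosis median of 0.14 at E12.5. Without the detection filter the mitosis medians were 0.02 at E9.5 and 0.05 at E11.5. Counting any probe gave 5 members from E12.5 to E13.5 in controls, and in mutants 5 at the step into E12.5 and 13 at the step into E13.5.

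At an unadjusted p under 0.05 the counts were 1, 2, 5 and 8 between genotypes at E9.5, E11.5, E12.5 and E13.5, 4, 11 and 6 in controls to E10.5, E11.5 and E13.5, 9 and 7 in mutants to E10.5 and E12.5, and 1, 1, 5 and 3 for the interactions. With other samples in the fit (10 groups for genotypes, 2 stages for steps) they were 2 at E12.5 and 0 at E13.5 between genotypes, 0, 2, 7 and 6 at the control steps, and 0 to E10.5 and 1 to E12.5 in mutants.

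With the 4 excluded arrays the medians were 0.06 and 0.29 at E9.5 and 0.28 and 0.46 at E13.5 (replication, mitosis). The counts were then 0 between genotypes at E13.5, 0, 0 and 0 in controls to E10.5, E11.5 and E12.5, and 0, 2, 0 and 1 at the mutant steps. Leaving out together the 3 arrays with the lowest share of detected probes, which was chosen after seeing the data, gave a mitosis median of 0 at E9.5 and counts of 8 between genotypes at E12.5, 8 and 7 in controls to E11.5 and E12.5, 1 in mutants to E10.5 and 3 for the last interaction. *Cdk1* and *Top2a* at E12.5 reversed to -0.83 and -0.56, both without these arrays and without control 2 alone, and over the fits without 1 array they ran from -0.83 to 0.56 and from -0.56 to 0.48.

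Leaving out each array in turn gave counts of 0 to 9 at E12.5 and 0 to 4 at E13.5 between genotypes, of 0 to 2, 3 to 6, 7 to 16 and 3 to 5 at the control steps, of 0 to 5, 8 to 13, 1 to 3 and 6 to 8 at the mutant steps, and of 0 to 2 for the last interactions. The replication medians ran from -0.26 to -0.11 at E9.5, -0.06 to 0.13 at E10.5, -0.20 to -0.06 at E11.5, -0.02 to 0.30 at E12.5 and 0.05 to 0.11 at E13.5. The mitosis medians ran from -0.10 to 0.00 at E9.5, 0.34 to 0.38 at E12.5 and 0.07 to 0.15 at E13.5. Probes near background limit *Prim1*, *Ccna2*, *Ccne2* and *Mcm7*.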

Other observations

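The 4 arrays that the authors excluded were normalised together with the other 36 to give their values. Control 4 of E9.5 had 33.1% of probes detected, a replication mean of 8.62 (the others of its group 9.49 to 9.82) and a mitosis mean of 7.99 (9.42 to 9.51). Control 3 of E13.5 had 26.2% detected and means of 7.54 (8.80 to 9.06) and 7.61 (8.75 to 8.89). Mutant 3 of E13.5 had 44.0% detected and means of 8.72 (9.13 to 9.22) and 8.40 (8.94 to 9.05). Control 4 of E12.5, with 52.6% detected, was above its group instead, with means of 9.36 (8.44 to 9.12) and 9.33 (8.51 to 9.01).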
